A study of Mus musculus with 64 samples.

Results

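The collagen genes of the mouse were followed in 4 tissues: every gene symbol made of Col, a number, the letter a and a number, in the liver, heart, white fat and lung tables, with the rows of a symbol summed. This rule found 43 genes among the 25107 symbols of the series. Of these, 11 encode fibrillar collagens, 8 encode collagens of the basement membrane (the type IV genes Col4a1 to Col4a6, with Col15a1 and Col18a1) and 24 encode other collagens. RNA was sequenced from 64 libraries, 20 each of liver and heart and 12 each of inguinal white fat and lung. The question was how loss of the clock factor Bmal1 in skeletal muscle, with or without exercise training, is reflected in tissues other than muscle.

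All mice carried the genotype labelled Cre+:iMSBmal1 fl/fl, that is, an inducible Cre and floxed Bmal1 alleles. Sedentary vehicle mice received vehicle and no training. Trained vehicle mice received vehicle and 6 weeks of daily treadmill running. Sedentary knockout and trained knockout mice are labelled iMSBmal1KO, without and with the same training. Tissue from all groups was taken 48 hours after the last bout, per the labels. There were 5 libraries per group for liver and heart and 3 per group for fat and lung. Vehicle mice carry the same alleles, so the inducing treatment and the loss of Bmal1 cannot be told apart. Age, sex, the hour of collection and the promoter that drives Cre are not given in the sources used here. The labels number the replicates without saying that each is a separate animal, so p-values reflect only how far these samples spread, which may be technical.

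Collagens are the main structural proteins of the extracellular matrix, each built from 3 chains wound into a triple helix. Fibrillar collagens such as types I, III and V form the fibres that give tissue its tensile strength and are made mainly by fibroblasts and related stromal cells. Type IV collagen forms the sheet-like network of basement membranes beneath epithelium and endothelium and around muscle fibres and fat cells, while types XV and XVIII are proteoglycan collagens of the basement membrane zone. Other members include type VI, which forms beaded filaments, and collagens that decorate fibrils or span the cell membrane.

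Levels are given in CPM, counts per megaread. For fat and lung these are the deposited estimated reads divided by library totals. For liver and heart they are the deposited scaled values multiplied by 1 factor for the tissue. Depth ran from 12.4 to 20.7 M reads in liver, 14.1 to 21 in heart, 19 to 31.2 in fat and 18.7 to 35.7 in lung. Of the 43 members, 35 were listed and 19 tested in liver, 39 listed and 24 tested in heart, 40 listed and 35 tested in fat, and all 43 listed and 35 tested in lung. Listed members that were not tested lay under the filter on low values, with means of at most 0.807 CPM in heart, 0.79 in liver, 0.328 in lung and 0.129 in fat. A difference was called at a Benjamini-Hochberg adjusted p under 0.05, from limma in liver and heart and from edgeR in fat and lung. Muscle, where Bmal1 was removed, is not among the tissues, so the level of Bmal1 (listed as Arntl, 0.646 to 3.21 CPM as group means) does not check the knockout labels. In trained livers Arntl ran from 1.23 to 3.22 CPM with vehicle and from 0.27 to 1.14 in the knockout. In sedentary lungs it ran from 2.57 to 2.93 and from 1.72 to 1.98. Vehicle and knockout ranges overlapped in sedentary livers, in trained lungs, and in heart and fat. No test of these is given. Defining markers of each labelled tissue were abundant, and 4 libraries carried transcripts of another tissue: 1 trained knockout liver with skeletal muscle markers, sedentary vehicle and trained knockout hearts (1 each) with adipocyte markers, and 1 trained vehicle heart with hepatocyte markers. That count compares each library with the median of its tissue, so it cannot show markers present in all libraries. Cardiomyocyte markers summed to 271 to 1854 CPM in the lung libraries.

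Of 565 tests of collagen genes (5 comparisons in each of 4 tissues), 6 passed. In the heart Col4a2 rose with training in vehicle mice, and Col4a1, Col4a2, Col15a1 and Col3a1 were lower in trained knockout than in trained vehicle mice. In white fat Col18a1 was higher in sedentary knockout than in sedentary vehicle mice. Of all genes tested, 8.27%, 0.52% and 0.557% were called in these comparisons, in the order given. No collagen gene was called in liver or lung by these tests.

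The genome places the type IV genes in head-to-head pairs, and the pair of Col4a1 and Col4a2 was called together in the heart. By the positions given with the fat and lung values (build GRCm39), Col4a1 lies on chromosome 8, 11248423 to 11362827 (minus strand) and Col4a2 on chromosome 8, 11362805 to 11499288 (plus strand). Their first exons overlap by 23 bases with both printed ends counted, and by 22 bases by the RefSeq starts (build GRCm38.p6). Col4a4 and Col4a3 start 71 bases apart on chromosome 1, and Col4a6 and Col4a5 start 1342 bases apart on chromosome X. The 250 bases before the start of Col4a1 therefore lie in the transcribed part of Col4a2 and the reverse, and they are not printed. By the letters of the RefSeq windows (build GRCm38.p6), 74.4% of the bases before Col4a1 and 73.6% of those before Col4a2 are G or C. The other genes called in the heart start on their own, and the 250 bases before their RefSeq starts are shown because these genes were called lower together. The windows are chr4:47207762-47208011 for Col15a1 and chr1:45311288-45311537 for Col3a1, both on the plus strand, printed from 5′ to 3′. Capitals mark 4 motifs on either strand: the GC box (GGGCGG), the box named after its letters CCAAT, the TATA box (TATAAA) and the E-box (CACGTG).
Col15a1: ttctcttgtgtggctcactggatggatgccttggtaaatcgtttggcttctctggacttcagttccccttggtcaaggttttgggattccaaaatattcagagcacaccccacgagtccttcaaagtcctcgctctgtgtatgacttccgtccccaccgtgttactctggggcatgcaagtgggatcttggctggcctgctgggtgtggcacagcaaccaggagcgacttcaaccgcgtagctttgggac
Col3a1: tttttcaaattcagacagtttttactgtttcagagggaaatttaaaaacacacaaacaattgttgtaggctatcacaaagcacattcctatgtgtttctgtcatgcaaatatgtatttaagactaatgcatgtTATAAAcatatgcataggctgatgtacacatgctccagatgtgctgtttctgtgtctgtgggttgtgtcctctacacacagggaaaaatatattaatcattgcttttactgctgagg
The Col15a1 window holds none of the 4 motifs. The Col3a1 window holds 1 TATAAA and has a G and C share of 35.2%, against 53.6% in Col15a1. Among 32851 RefSeq windows of this length, the TATA box in either direction occurs in 12.4%, the GC box in 32.7%, the CCAAT box in 33.8% and the E-box, the kind of site that BMAL1 and CLOCK bind, in 6.02%. Of 36 windows that matched 34 of the 43 collagen genes, the TATA box occurred in 5, the GC box in 22, the CCAAT box in 12 and the E-box in 0. A match of letters is a description of the window, not a binding site.

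Each tissue had its own collagen profile. Values per kilobase of transcript allow genes to be set against each other, and shares are of the summed collagen level per kilobase over all libraries of a tissue (mean ± SD, n = 20 in liver and heart and n = 12 in fat and lung). In liver, Col18a1, which encodes the parent chain of endostatin, held 78.3% ± 4.66 of the summed level. It stood at 566 CPM, or 106 CPM per kb. The next genes of the liver were Col27a1, a fibrillar collagen known best from cartilage (6.85% ± 2.83), Col5a3, a minor fibrillar chain (3.33% ± 1.52), and Col14a1, a fibril-associated collagen (2.97% ± 0.65). Col1a1, the main chain of type I collagen, held 0.216% ± 0.0718. The basement membrane class thus took 80.9% ± 4.58 of the liver's summed level, and the type IV genes alone 1.91%.

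In the heart the order was led by Col4a1 (17.6% ± 0.933) and Col4a2 (16.7% ± 1.02), the ubiquitous type IV chains. They were followed by the type I chain Col1a2 (10.7% ± 0.699), by Col3a1 (8.54% ± 1.08), which encodes the collagen of fine reticular fibres, and by the type VI chains Col6a2 (8.35% ± 0.353) and Col6a1 (7.83% ± 0.454). Col4a1 and Col4a2 differed by less than their spread, as did Col3a1 and Col6a2, their neighbours further down the order. Basement membrane collagens held 46% ± 1.7, fibrillar collagens 29.3% ± 1.49 and the others 24.6% ± 0.796. White fat had the highest values per kilobase of the 4 tables, and fibrillar collagens held the largest share there (43.2% ± 3.09, against 32.1% ± 4.17 for the basement membrane class and 24.8% ± 2.2 for the others). Its leading genes were Col3a1 (15.5% ± 2.91), Col1a2 (13.8% ± 1.9) and Col4a1 (11.3% ± 1.56).

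Lung was led by Col4a2 (17% ± 1.21) and Col4a1 (13.8% ± 0.998), with the basement membrane class at 45.7% ± 3.58, fibrillar collagens at 20.3% ± 1.89 and the others at 34% ± 2.2. Its profile also held genes that were low elsewhere. Col4a3, a chain of the mature basement membrane of alveoli and kidney glomeruli, took 5.31% ± 1.47 in lung, and its level per length was 23.4 CPM per kb there, 0.342 in heart, 0.315 in fat and 0.0918 in liver. Col23a1, a transmembrane collagen, stood at 22.4 CPM per kb in lung, 2.54 in fat, 0.609 in heart and 0.0713 in liver, where it lay under the filter, as did Col4a3. The tables were made separately, and no test was made between tissues.

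**Figure D1:**
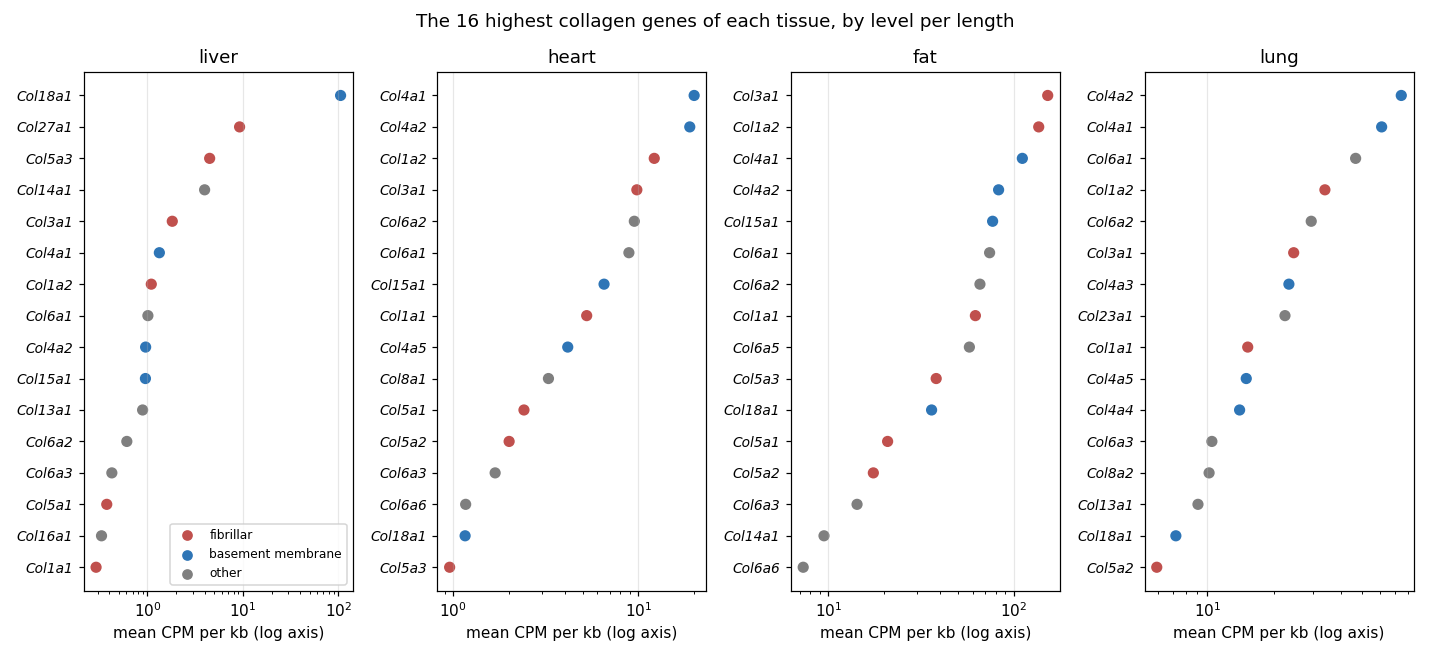
Mean level per kilobase of the 16 highest collagen genes in each tissue (CPM per kb, log axis), over all libraries of the tissue, coloured by class. Col18a1 stands far above the other genes in liver at 105.7 CPM per kb, while Col4a1 and Col4a2 lead in heart and lung and Col3a1 leads in fat.

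Chains that assemble with each other can be compared by their ratio within a library. The main form of type IV collagen joins COL4A1 with COL4A2 chains, and type I collagen joins COL1A1 with COL1A2 chains. The level of Col4a2 per kilobase relative to Col4a1 was 0.949 ± 0.0462 in heart (n = 20), 1.23 ± 0.0506 in lung (n = 12), 0.735 ± 0.0729 in fat (n = 12) and 0.73 ± 0.111 in liver (n = 20). The range in lung, 1.14 to 1.32, lay above the range in heart, 0.868 to 1.04, and above that of fat, 0.664 to 0.911. For the type I chains, Col1a1 relative to Col1a2 was 0.431 ± 0.0499 in heart, 0.449 ± 0.0531 in fat, 0.445 ± 0.0425 in lung and 0.266 ± 0.0661 in liver. Reads were assigned to these genes by the authors' counting, and the part of that counting in the ratios was not tested.

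With training in vehicle mice Col4a2 rose in the heart, where no other collagen gene passed. It stood at 124, 129, 112, 112 and 119.7 CPM in sedentary vehicle hearts (replicates 1 to 5) and at 124, 143, 145, 162 and 124 in trained vehicle hearts. The trained hearts were higher on average, led by replicate 4, and the groups overlapped. The log2 fold change was 0.22 (SE 0.06, limma adjusted p 0.0304), from 119.5 ± 7.47 to 139.5 ± 15.9 (SD, n = 5 each). Its partner Col4a1 went from 133 ± 5.17 to 153 ± 19.6 (log2 0.20, SE 0.06, limma adjusted p 0.0592) and missed the threshold. In bulk tissue a change in the number of cells of a type and a change in the RNA per cell cannot be told apart.

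Called in this comparison was 1 of 24 collagen genes, against 8.27% of all genes tested (1113 of 13456), or 4.72% higher and 3.55% lower, so collagen genes were called no more often than other genes. At an unadjusted p under 0.05, 3 were higher (Col4a1, Col4a2 and Col1a1) and 4 lower (Col27a1, Col4a3, Col4a5 and Col4a6), against 12.7% and 11.9% of all genes. Of the lower ones, 3 are minor type IV chains: Col4a5 had a log2 fold change of -0.15 (SE 0.05), Col4a3 -0.33 (SE 0.13) and Col4a6 -0.42 (SE 0.17), none of them called. The median over the 24 collagen genes was 0.03, against -0.002 over all genes.

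Transcript length moved with this comparison. The length index, the mean log2 level of the longest 10% of tested genes less that of the shortest 10%, collagens left out, was 0.388 to 0.452 in sedentary vehicle hearts and -0.011 to 0.246 in trained vehicle hearts, which do not overlap. Fold change and length had a Spearman correlation of -0.541 across 12404 genes, which are not independent replicates. Collagen transcripts are long, with a median of 6128 bases against 2999 for the genes tested in heart, and Col4a2 (6450 bases) was higher where long genes were lower on the whole. With the index as a covariate its log2 fold change was 0.23 (SE 0.11, limma adjusted p 0.917), and 0 of all genes were called, collagen genes among them. The number of called collagen genes was 3 without the libraries that carried another tissue, 3 without trained vehicle replicate 5, 2 without sedentary vehicle replicate 1, and 0 without sedentary vehicle replicates 3 or 4 or trained vehicle replicates 2, 3 or 4, left out in turn. Without the libraries that carried another tissue, 636 of all 13452 genes were called higher and 554 lower. The shares with a single library left out are not given.

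Of the 6 calls, 4 lay between trained knockout and trained vehicle hearts, all of them lower in the knockout. Col4a1 stood at 142, 152, 152, 185 and 133 CPM in trained vehicle hearts and at 112, 113, 128, 112 and 128 in trained knockout hearts. Every knockout library lay below every vehicle library, and the log2 fold change was -0.36 (SE 0.06, limma adjusted p 0.0201). Col4a2 stood at 113, 107, 119, 109 and 114 in trained knockout hearts, all below the trained vehicle hearts given above (log2 -0.30, SE 0.06, limma adjusted p 0.0364).

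Col15a1, which links the basement membrane of muscle fibres and small vessels to the fibres around it, stood at 38.1, 35.8, 39, 44.9 and 35.2 in trained vehicle hearts and 30, 32.3, 34.4, 30.1 and 31.8 in trained knockout hearts. These groups do not overlap either (log2 -0.27, SE 0.06, limma adjusted p 0.0379). In sedentary mice Col15a1 was 37.6 ± 2.14 with vehicle and 31 ± 0.537 in the knockout (log2 -0.27, SE 0.06), with all 5 knockout hearts below the vehicle hearts. That difference had an unadjusted p of 0.000104 and a limma adjusted p of 0.175, and it was not called.

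Col3a1 stood at 67.7, 52.3, 78.8, 81.7 and 57.6 in trained vehicle and 44.5, 41.4, 54.1, 42.5 and 51.7 in trained knockout hearts. The groups overlapped through trained vehicle replicate 2, the lowest of its group, and the log2 fold change was -0.51 (SE 0.12, limma adjusted p 0.0452). The type I chains, the other main fibre collagen of the heart, missed the threshold. Col1a1 was 37.6 ± 6.75 against 28.6 ± 1.51 (log2 -0.37, SE 0.09, limma adjusted p 0.0624), and Col1a2 was 68.2 ± 7.26 against 62.6 ± 4.26 (log2 -0.12, SE 0.07, 95% interval -0.26 to 0.03).

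In all, 4 of 24 collagen genes were called lower and 0 higher, against 0.52% of all genes (70 of 13456). By the unadjusted p under 0.05, 10 were lower, against 8.19% of all genes, and 1 was higher, against 6.9%. These 10 were the 4 called genes with Col1a1, Col5a1, Col5a3 and the type VI chains Col6a1, Col6a2 and Col6a3, and the 1 higher gene was Col4a5. By class, 7 of 8 fibrillar, 5 of 8 basement membrane and 7 of 8 other collagens had a negative fold change. The median over the collagen genes was -0.14, against 0 over all genes. With edgeR on estimated reads 4 were called, without the libraries that carried another tissue 6, without a filter on low values 1, and with only the compared groups in the fit 0. Of all genes these settings called 11 higher and 39 lower, 194 and 258, 0 and 14, and 0 and 0, in the same order. The main fit called 22 and 48.

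The training comparison and this comparison use the same 5 trained vehicle hearts. Length moved here too, with a Spearman correlation of 0.376 between fold change and length across 12404 genes, so that long genes were higher in the knockout on the whole while the 4 called collagen genes were lower. With the length index as a covariate their fold changes were -0.32, -0.31, -0.27 and -0.44 for Col4a1, Col4a2, Col15a1 and Col3a1, and none was called (limma adjusted p 0.367, 0.367, 0.367 and 0.452). That fit called 0 of all 13456 genes in this comparison, so the loss of the calls was not particular to these genes. The number called was 2 without trained vehicle replicate 1, 0 without trained vehicle replicate 2, 1 without trained vehicle replicate 3 or 4, and 0 without trained knockout replicate 1, 2 or 4. Endothelial markers (7 of 7 measured) summed to 515 to 600.5 CPM in trained vehicle and 467 to 501 in trained knockout hearts, without overlap. Fibroblast markers (7 of 7 measured) summed to 565 to 677 and 605 to 634, with overlap. Adipocyte markers (6 of 6) summed to 1.15 to 43.7 and 1.23 to 83.9, also with overlap. Macrophage markers (6 of 6) summed to 50.4 to 57 and 60.4 to 69, higher in the knockout without overlap. The part of these in the collagen differences was not tested.

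**Figure D2:**
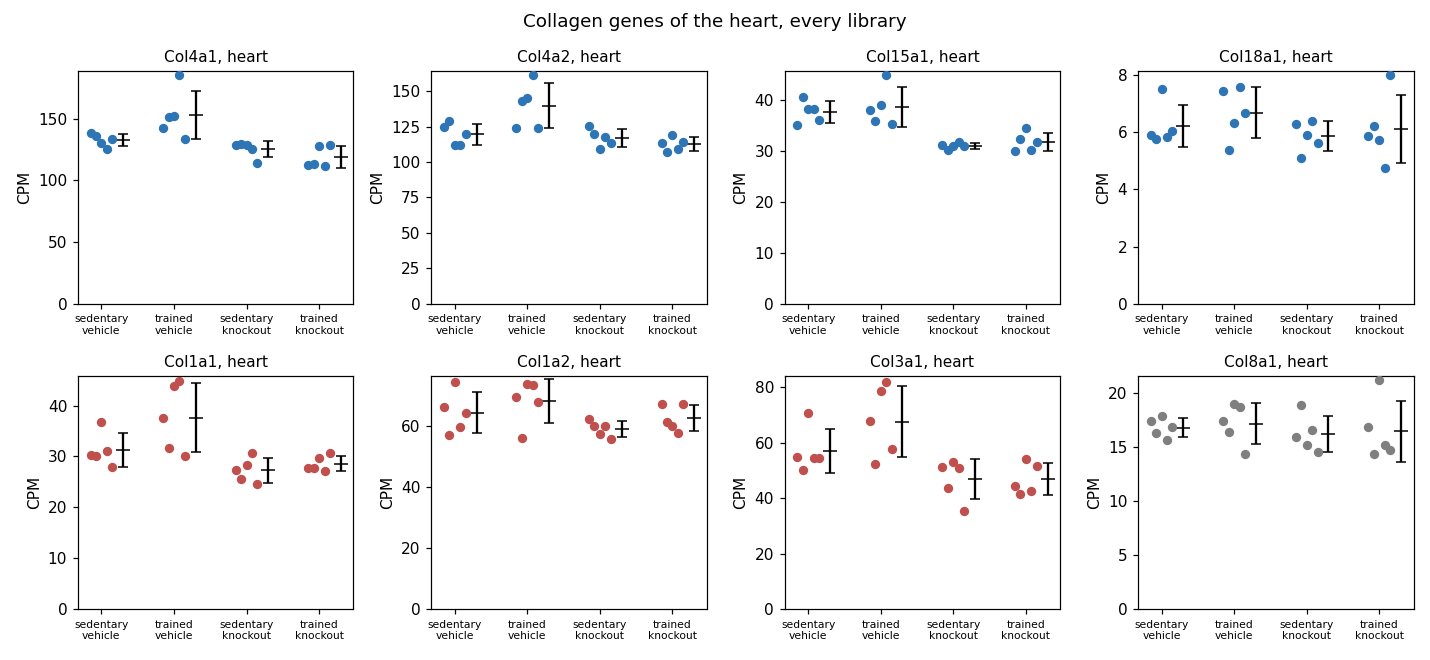
Levels of 8 collagen genes in every heart library (CPM), by group, with basement membrane collagens in blue, fibrillar ones in red and others in grey. The black marks give the mean and SD of 5 libraries. Col4a1, Col4a2 and Col15a1 show trained knockout hearts below all trained vehicle hearts.

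In sedentary hearts the knockout gave no call, and nearly all collagen fold changes were negative. Of 24 collagen genes, 23 had a negative fold change, all but Col4a5, while all genes split evenly. At an unadjusted p under 0.05, 6 were lower and 0 higher, against 3.32% and 3.22% of all genes, or 6.54% in either direction. The 6 were Col15a1, Col6a1, Col4a4, Col5a2, Col3a1 and Col6a2. The type VI chain gene Col6a1 stood at 34, 36.6, 39, 36.6 and 39.3 in sedentary vehicle and 35.4, 30.9, 31.8, 30.8 and 29.6 in sedentary knockout hearts, with overlap through knockout replicate 1 (log2 -0.22, SE 0.06, limma adjusted p 0.309). The median over the collagen genes was -0.14, against 0 over all genes. Neither limma nor edgeR on estimated reads called a collagen gene, and limma called 0 of 13456 genes in this comparison (background 0.0%). The correlation of length with fold change was 0.071, and with the length index as a covariate 22 of 24 fold changes were negative. Fibroblast markers summed to 595 to 699 in sedentary vehicle and 553 to 625 in sedentary knockout hearts. Their part was not tested.

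Training in knockout hearts called no collagen gene by limma (background 0.0223%), and 2 of 24 were higher and 0 lower at an unadjusted p under 0.05, against 6.01% and 5.8% of all genes. The smallest p was that of Col5a2, a regulatory chain of fibril diameter, which was 11.3 ± 0.797 in sedentary and 13.5 ± 0.887 in trained knockout hearts (log2 0.24, SE 0.10, limma adjusted p 0.338). The difference between training effects had its smallest p for Col4a2, at -0.27 on the log2 scale (SE 0.09), next to Col4a1 at -0.27 (SE 0.09). Their limma adjusted p-values were 0.528 and 0.532, and 0 of 24 collagen genes were called (background 0.0%), with 2 higher and 2 lower at an unadjusted p under 0.05, against 3.98% and 4.08% of all genes.

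Genes that make, process, bind or degrade collagen were taken from lists of 73 genes, of which 62 were tested in heart. With training in vehicle mice, 2 of the 9 tested basement membrane partners fell and none rose, against 3.55% of all genes called lower and 4.72% higher. Lama2, the laminin alpha chain of the muscle basement membrane, went from 78 ± 3.99 to 66.7 ± 4.44 (log2 -0.22, SE 0.05, limma adjusted p 0.0126). Nid1, which encodes nidogen, the linker between laminin and type IV collagen, went from 96 ± 5.01 to 84.3 ± 6.62 (log2 -0.19, SE 0.06, limma adjusted p 0.0459). Both went the opposite way to Col4a2 in the same hearts. Long genes were lower in this comparison on the whole, as given above, and with the length index as a covariate limma called 0 of all genes, so neither call held there. None of the 62 genes passed in any other heart comparison.

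In white fat Col18a1 was called higher in sedentary knockout than in sedentary vehicle mice, and the summed collagen level was also higher, without a test of the sum. The summed collagen level per kilobase was 814 ± 80.1 CPM per kb in sedentary vehicle and 1172 ± 105 in sedentary knockout fat (SD, n = 3 each), with ranges of 731 to 891 and 1053 to 1251 that do not overlap. It was 897 ± 63.1 in trained vehicle and 1078 ± 256 in trained knockout fat. Col18a1 stood at 162, 166 and 159 CPM in sedentary vehicle, 173, 169 and 149 in trained vehicle, 218, 259 and 246 in sedentary knockout and 234, 179.6 and 199 in trained knockout fat. Every knockout library lay above every vehicle library. The sedentary difference was called (log2 0.58, SE 0.10, edgeR adjusted p 0.0459), and the trained difference was not (log2 0.31, SE 0.10, edgeR adjusted p 0.0973). The sedentary call was lost with only the compared groups in the fit (edgeR adjusted p 0.0729) and with the length index as a covariate, added after the data were seen (edgeR adjusted p 0.117). It was lost too with the replicate number as a block. Of all genes these fits called 6 higher and 6 lower, 1 and 1, and 9 and 1, against 66 and 20 in the main fit.

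The fat table holds 2 Col18a1 transcripts with separate starts on chromosome 10 (GRCm39, minus strand). The transcript from the downstream start (76888013 to 76949540) stood at 135, 122 and 132 CPM in sedentary vehicle and 170.2, 193 and 198 in sedentary knockout fat. The transcript from the upstream start (76888013 to 77002365) stood at 26.2, 43.5 and 27.5 and 47.6, 65.8 and 48.1. Both were higher in the knockout libraries, each without overlap. The downstream form held 80.1% ± 5.49 of the gene's estimated reads in sedentary vehicle and 77.7% ± 2.97 in sedentary knockout fat, a difference smaller than the spread. Most of the transcript is shared, so this split rests on the authors' estimate.

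Called in this comparison was 1 of 35 collagen genes, against 0.557% of all genes (86 of 15448). With the unadjusted p under 0.05, 15 were higher and 0 lower, against 10.3% and 7.6% of all genes. They comprise 5 of 9 fibrillar genes (Col1a1, Col1a2, Col5a1, Col5a2 and Col5a3), 4 of 8 basement membrane genes (Col4a1, Col4a2, Col15a1 and Col18a1) and 6 of 18 others (Col6a1, Col6a2, Col6a3, Col8a1, Col12a1 and Col16a1). Col4a2 stood at 409.8, 325 and 526 and 536, 798 and 810.2 in sedentary vehicle and knockout fat (log2 0.78, SE 0.19, edgeR adjusted p 0.0791), with the knockout libraries above the vehicle ones by a small margin. Col15a1 stood at 306, 247 and 456 and 591, 473 and 659 (log2 0.79, SE 0.23, edgeR adjusted p 0.111), also without overlap.

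Among the fibrillar genes, Col1a1 stood at 279, 219 and 266 and 362, 524 and 458 (log2 0.82, SE 0.27). Col5a1, a chain that starts fibril assembly, stood at 134, 117 and 163 and 192, 220.2 and 258 (log2 0.71, SE 0.17). In both genes the groups do not overlap, and neither passed the edgeR test (adjusted p 0.145 and 0.0791). Col3a1, by contrast, was 749.9 ± 79.5 and 782 ± 99.2 (log2 0.08, SE 0.22, edgeR adjusted p 0.878). Of the type VI genes, Col6a1 stood at 218, 192 and 263 and 360.1, 450.2 and 429 (log2 0.89, SE 0.22, edgeR adjusted p 0.0837). Col6a5, a chain abundant in this fat, was 541 ± 158 and 382 ± 201 (log2 -0.50, SE 0.39), the opposite sign, within its spread.

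Over the 35 genes the median log2 fold change was 0.48, against -0.002 over all genes, and by class it was 0.55 for fibrillar, 0.16 for basement membrane and 0.35 for other collagens. DESeq2 called 11 collagen genes in this comparison, and 5.84% of all genes it tested. With edgeR the number was 2 without sedentary knockout replicate 1, 0 when any other library of the comparison was left out in turn, and 0 with no filter on low values. Fibroblast markers (7 of 7 measured) summed to 2643 to 2849 CPM in sedentary vehicle and 2218 to 2389 in sedentary knockout fat. The sum was lower in the knockout without overlap, but Dcn alone made up 69.7% of its mean over the fat libraries. Brown fat markers (6 of 6) summed to 20.5 to 30.9 and 33.3 to 63.9, adipocyte markers (6 of 6) to 10320 to 11140 and 9638 to 11840, and endothelial markers (7 of 7) to 375 to 579.9 and 464 to 784. Hepatocyte markers (8 of 8) summed to 3787 to 4754 and 1091 to 2075, and 92.5% of the mean sum was Cyp2e1. Hepatic stellate cell markers (5 of 5) summed to 1845 to 2100 and 1375 to 1623, and 98.7% of that was Dcn, which is on the fibroblast list too. Both sums were lower in the knockout without overlap. No marker of these lists was at 0 throughout, and their part in the collagen differences was not tested.

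**Figure D3:**
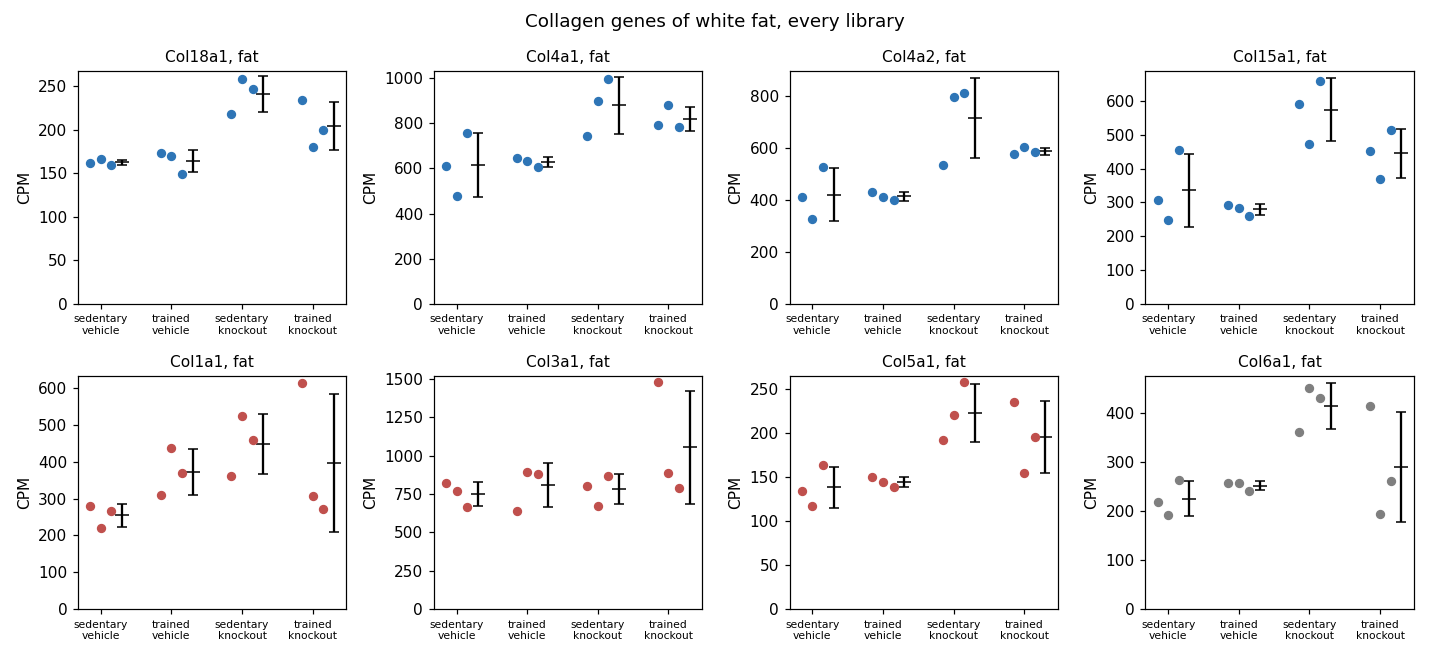
Levels of 8 collagen genes in every white fat library (CPM), by group, with basement membrane collagens in blue, fibrillar ones in red and others in grey. The black marks give the mean and SD of 3 libraries. Col18a1 is higher in all knockout libraries than in all vehicle libraries, and Col3a1 shows no such separation.

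Between trained knockout and trained vehicle fat, edgeR called 0 of 35 collagen genes, against 4.43% of all genes (685 of 15448), and DESeq2 called 6, against 12.6% of all genes it tested. Unadjusted p-values under 0.05 marked 10 genes: 8 were higher and 2 lower, against 10.7% and 14.7% of all genes, so the share of lower genes was under the background. Of the 8 higher, Col18a1, Col15a1, Col4a2, Col5a1, Col5a3 and Col8a1 were also higher at an unadjusted p under 0.05 in the sedentary comparison. It uses other libraries but the same estimate of spread per gene, so the tests are not independent. The share of all genes higher in both is not given. Col15a1 stood at 292, 284 and 261 in trained vehicle and 454, 369 and 514 in trained knockout fat, without overlap (log2 0.67, SE 0.23, edgeR adjusted p 0.104). Col4a2 stood at 432, 409.7 and 398 and 575, 603 and 586, again without overlap (log2 0.50, SE 0.19, edgeR adjusted p 0.138). The smallest p was that of Col13a1, a transmembrane collagen, with only 0, 3 and 1 estimated reads in trained vehicle and 9, 16 and 16 in trained knockout fat. Its fitted fold change depends on the prior count (edgeR adjusted p 0.0556). Replicate 1 of trained knockout fat stood apart, with Col1a1 at 613 against 307 and 271 in the others, and without it 3 collagen genes were called for this comparison and 3 for the difference of training effects. The share of all genes called without that library is not given. With only the compared groups in the fit 1 was called, and of all 14953 genes tested 85 were called higher and 412 lower. Endothelial markers (7 of 7 measured) summed to 352 to 526 CPM in trained vehicle and 538 to 793 in trained knockout fat, and brown fat markers (6 of 6) to 15.3 to 19.9 and 24 to 27.9, each higher in the knockout without overlap. Their part in the collagen differences was not tested.

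In trained knockout fat a few of the genes that make, process or degrade collagen were called, each of them lower, in a comparison where 3.59% of all genes were called lower and 0.842% higher. With the length index as a covariate, which was added after the data were seen, edgeR called 0 of all genes in this comparison, so none of the following calls held there. Of 18 tested genes of collagen synthesis and folding 2 were lower and 0 higher, and of 13 genes of procollagen processing and cross-linking 1 was lower. P4ha1, a catalytic subunit of the prolyl hydroxylase that stabilises the triple helix, was 66.6 ± 7.94 in trained vehicle and 42.4 ± 7.8 in trained knockout fat (log2 -0.66, SE 0.15, edgeR adjusted p 0.0405). Colgalt1, which adds galactose to collagen, was 180.0 ± 7.42 and 122 ± 18.6 (log2 -0.57, SE 0.14). Pcolce, an enhancer of procollagen C-proteinase, was 68.9 ± 7.54 and 50.1 ± 7.77 (log2 -0.47, SE 0.10). Of 8 tested genes of collagen breakdown 1 was lower, Mmp3, the matrix protease stromelysin (log2 -2.18, SE 0.43, from 3.6 ± 1.31 to 0.806 ± 0.244).

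Among the TGF-beta signalling genes, Tgfbr2, the receptor that binds the ligand, was called lower, at 245 ± 43.1 in trained knockout against 370.2 ± 17.7 in trained vehicle fat (log2 -0.61, SE 0.13). The edgeR adjusted p-values of these genes lay between 0.0378 and 0.047. Trained vehicle fat stood apart in macrophage markers (6 of 6 measured), with a sum of 1152 to 1382 against 433 to 813 in trained knockout fat, and in adipocyte markers (7848 to 8452 against 9300 to 11340). Their part in these differences was not tested. In sedentary mice, 1 of 9 collagen receptor genes was called: Itga1, the alpha subunit of an integrin that binds type IV collagen, was 17.6 ± 3.29 in vehicle and 32.1 ± 5.7 in knockout fat (log2 0.87, SE 0.16, edgeR adjusted p 0.0473), where 0.427% of all genes were called higher. None of the 68 tested genes passed in the other fat comparisons.

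Training itself left the fat collagen genes without a call in either genotype (edgeR background 0.0% with vehicle and 0.0% in the knockout), while DESeq2 called 0 and 2 (background 5.45% and 3.98%). Counted by the unadjusted p under 0.05, 0 were higher and 2 lower with vehicle, against 10.2% and 7.79% of all genes, and 1 was higher and 7 lower in the knockout, against 7.51% and 8.78%. The smallest p with vehicle was that of Col13a1 at 2, 17 and 6 estimated reads in sedentary and 0, 3 and 1 in trained fat (edgeR adjusted p 0.195). In the knockout it was that of Col12a1, a fibril-associated collagen of tendon and fascia, at 19.7, 12.2 and 28.9 CPM in sedentary and 9.21, 2.64 and 5.49 in trained fat, without overlap (log2 -1.87, SE 0.41, edgeR adjusted p 0.107). The difference between the training effects was largest by p for Col16a1, a fibril-associated collagen (-1.37, SE 0.39, edgeR adjusted p 0.141). There edgeR called 0 collagen genes (background 0.0%) and DESeq2 2 (background 5.04%), with 1 higher and 4 lower at an unadjusted p under 0.05, against 7.42% and 11% of all genes.

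In the lung, edgeR called no collagen gene in any comparison, although most shared a sign in all but the knockout in trained mice. Of 35 genes, 26 were positive with training in vehicle mice and 30 with the knockout in sedentary mice. With training in knockout mice 25 were negative, and 28 for the difference of training effects. Of all genes 48.8%, 47.5%, 54.2% and 55.3% were positive, in the same order. The summed collagen level per kilobase was 403 ± 27.9 in sedentary vehicle, 470.0 ± 54.1 in trained vehicle, 477 ± 34.5 in sedentary knockout and 407 ± 42.2 CPM per kb in trained knockout lungs (n = 3 each). With training in vehicle mice, 11 of 35 genes were higher and 0 lower at an unadjusted p under 0.05, against 5.45% and 7.31% of all genes (0.204% called). With the knockout in sedentary mice it was again 11 higher and 0 lower, against 6.27% and 7.36% (0.0% called). The medians over the 35 genes were 0.22 and 0.22, against -0.007 and -0.016 over all genes. Both comparisons set a group against the same 3 sedentary vehicle lungs, so their likeness is not independent. DESeq2 called 1 and 3 collagen genes in them, against 2.48% and 1.92% of all genes it tested.

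The smallest p in both was that of Col6a2, which stood at 92.4, 106 and 87.3 CPM in sedentary vehicle, 133, 116 and 129.5 in trained vehicle, 119.5, 142 and 125 in sedentary knockout and 111, 133 and 121 in trained knockout lungs. The sedentary vehicle lungs lay below every library of the other groups. The log2 fold changes were 0.45 (SE 0.11, edgeR adjusted p 0.12) with training and 0.46 (SE 0.11, edgeR adjusted p 0.188) with the knockout. Col1a1 stood at 62.2, 81.8 and 65.8 in sedentary vehicle and 87.1, 121 and 109 in sedentary knockout lungs, without overlap (log2 0.61, SE 0.18, edgeR adjusted p 0.213). Sedentary vehicle lungs were also low in endothelial markers (7 of 7 measured), at 1951 to 2614 against 2904 to 2965 in trained vehicle and 2889 to 3240 in sedentary knockout lungs. Fibroblast markers (7 of 7) overlapped, at 676 to 786, 703 to 798 and 691 to 724. The part of either in the collagen differences was not tested.

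Basement membrane collagens of the lung stood lower in trained than in sedentary knockout mice, without a call. All 8 fold changes were negative (median -0.35), against 0.031 over all genes and -0.04 for the fibrillar collagens. Of the 8, 5 were lower at an unadjusted p under 0.05, and over all 35 collagen genes 8 were lower and 1 higher, against 7.59% and 9.05% of all genes (0.0% called). Col4a3 stood at 260.0, 193 and 184 CPM in sedentary knockout and 133, 147 and 104 in trained knockout lungs, against 304, 236 and 190.2 and 242, 177 and 242 in sedentary and trained vehicle lungs. The trained knockout lungs lay below all libraries of the other groups. The log2 fold change was -0.71 with training in the knockout (SE 0.21, edgeR adjusted p 0.24) and -0.79 with the knockout in trained mice (SE 0.21, edgeR adjusted p 0.282).

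Its neighbour and partner chain Col4a4 stood at 90.7, 89.2 and 43.3 in trained knockout and 146, 102 and 146 in trained vehicle lungs, without overlap (log2 -0.83, SE 0.24, edgeR adjusted p 0.282). Col4a2 was 544 ± 87.2 in trained vehicle and 421 ± 43.4 in trained knockout lungs (log2 -0.37, SE 0.15), with overlap. In that comparison 6 of 35 collagen genes were lower and 1 higher at an unadjusted p under 0.05, against 7.84% and 8.38% of all genes (0.0% called), and DESeq2 called 1 (background 0.827%). The type I chain gene Col1a1 was 91.3 ± 20.7 against 94.4 ± 15.1 (log2 0.05, SE 0.17). Endothelial markers summed to 2496 to 2826 CPM in trained knockout lungs, below the 2889 to 3240 of sedentary knockout and the 2904 to 2965 of trained vehicle lungs without overlap. Cardiomyocyte markers (7 of 7 measured) summed to 964 to 1467 in trained knockout and 590.3 to 809.7 in sedentary knockout lungs, also without overlap. The part of either in the collagen differences was not tested.

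Length moved with the trained knockout lungs. Their length index was 1.58, 1.48 and 0.642, against 1.67 to 1.78 in trained vehicle and 1.73 to 1.77 in sedentary knockout lungs, and over 16151 genes length and fold change had a Spearman correlation of -0.567 with training in the knockout and -0.582 with the knockout in trained mice. The genes concerned are long (8609 bases for Col4a3 and 7808 for Col4a4), and long genes had lower values in these lungs on the whole. With the length index as a covariate, which was added after the data were seen, the Col4a3 fold changes were -0.40 (SE 0.23) and -0.48 (SE 0.23), and no collagen gene was lower at an unadjusted p under 0.05 in either comparison. Without trained knockout replicate 3, the library with the lowest index, they were -0.62 (SE 0.23) and -0.70 (SE 0.23).

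**Figure D4:**
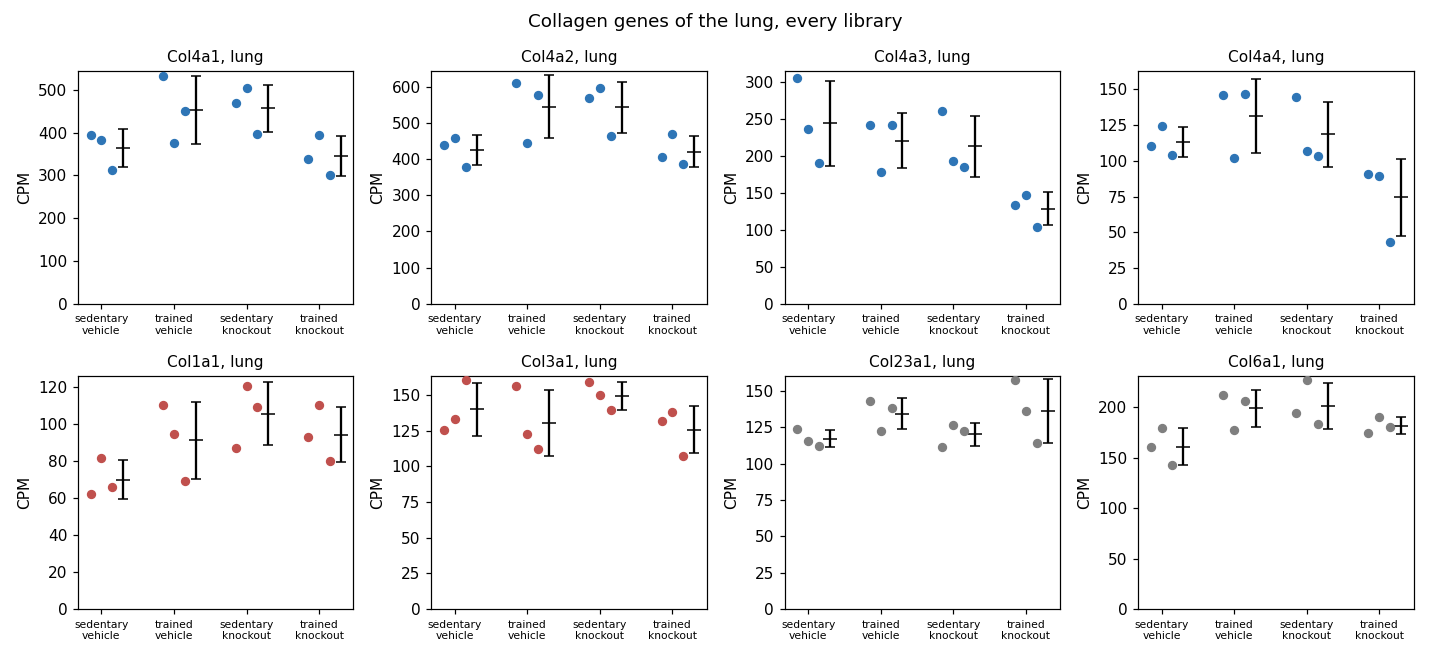
Levels of 8 collagen genes in every lung library (CPM), by group, with basement membrane collagens in blue, fibrillar ones in red and others in grey. The black marks give the mean and SD of 3 libraries. Col4a3 and Col4a4 are lowest in the trained knockout lungs, where replicate 3 has the lowest value of each.

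The training effect in lung differed between genotypes by -0.74 on the log2 scale for Col4a2 (SE 0.21, edgeR adjusted p 0.217) and by -0.74 for Col4a1 (SE 0.22, edgeR adjusted p 0.222). All 8 basement membrane collagens had a negative difference, as did 7 of 8 fibrillar and 13 of 19 other collagens. The unadjusted p was under 0.05 for 10 of 35 that were lower and 1 that was higher, against 7.05% and 8.13% of all genes. The edgeR fit called 0 (0.0% of all genes) and DESeq2 called 1 (background 2.03%). Of the 71 listed genes of collagen synthesis, processing, binding and breakdown tested in lung, none passed in any comparison.

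In the liver no collagen gene was called by limma or by edgeR on estimated reads in any of the 5 comparisons. Col18a1, the liver's dominant collagen gene, stood at 538 ± 69.9 CPM in sedentary vehicle, 575 ± 43.3 in trained vehicle, 569 ± 31.1 in sedentary knockout and 581 ± 71.1 in trained knockout livers (n = 5 each). The 95% interval of its log2 fold change was -0.10 to 0.30 with training in vehicle mice and -0.11 to 0.29 with the knockout in sedentary mice. The genes with the smallest p were Col6a2 and Col27a1. Few passed an unadjusted p under 0.05. With training in vehicle mice 2 of 19 were higher and 0 lower, against 3.21% and 3.7% of all genes (6.9% in all). With training in knockout mice 0 were higher and 1 lower, against 6.42% and 5.34% (11.8% in all). The knockout in sedentary mice gave 1 higher and 1 lower, against 2.13% and 2.68% (4.81% in all), and in trained mice 0 higher and 2 lower, against 11.7% and 10.2% (21.9% in all). For the difference of training effects it was 0 higher and 1 lower, against 6.13% and 4.1% (10.2% in all). The called shares of all genes were 0.0%, 0.0234%, 0.0%, 2.63% (1.55% higher and 1.08% lower) and 0.0078% in the same order.

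Col27a1 stood at 139.5, 72.4, 101, 84.8 and 87.7 CPM in trained vehicle and 61, 61.7, 59.7, 35.2 and 44.2 in trained knockout livers. The groups do not overlap, and the log2 fold change was -0.87 (SE 0.27, limma adjusted p 0.075). When only the groups of the comparison were fitted it was called (limma adjusted p 0.0278). That fit called 288 of all genes higher and 220 lower, against 199 and 138 in the main fit. Sedentary knockout livers stood at 40.3, 38.2, 119, 41.7 and 29.3 against 66.4, 78.4, 58.9, 102 and 90 in sedentary vehicle livers, all below them apart from replicate 3, the second highest of all 20 livers (log2 -0.72, SE 0.27, limma adjusted p 0.995).

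Col6a2, at 21 to 68 estimated reads per library, had training effects of opposite sign in the liver of each genotype, neither of them called. It stood at 1.56, 2.75, 1.82, 1.45 and 1.8 CPM in sedentary vehicle and 3.04, 2.31, 3.1, 2.31 and 2.92 in trained vehicle livers (log2 0.39, SE 0.15, limma adjusted p 0.568), with overlap through sedentary replicate 2. In the knockout it stood at 2.7, 2.85, 3.68, 3.81 and 2.94 when sedentary and 1.33, 2.45, 1.83, 1.62 and 2.48 when trained (log2 -0.52, SE 0.15, limma adjusted p 0.274), without overlap. The difference between the training effects was -0.91 (SE 0.21, unadjusted p 0.000251, limma adjusted p 0.214), the smallest p among the 19 collagen genes, and it was not called. Of the 45 listed pathway genes tested in liver, 1 was called: Tgfbr1, a receptor of TGF-beta, was 31 ± 2.34 in trained vehicle and 42.9 ± 6.38 in trained knockout livers (log2 0.45, SE 0.12, limma adjusted p 0.0467). In that comparison 1.55% of all genes were called higher and 1.08% lower. With the length index as a covariate limma called 2 of all genes higher and 0 lower there.

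The classes can be set side by side across tissues by their medians. For the knockout in trained mice the median log2 fold change of the basement membrane collagens was -0.06 in heart, 0.27 in fat, -0.35 in lung and 0.04 in liver. That of the fibrillar collagens was -0.16, 0.30, 0.03 and -0.04 in the same order. For the knockout in sedentary mice the basement membrane medians were -0.15, 0.16, 0.12 and 0.09, and the fibrillar medians -0.16, 0.55, 0.24 and 0.04. Differences between tissues and between classes were not tested. Of the summed collagen level, basement membrane collagens held 46.2% ± 2.42 in trained vehicle and 45.4% ± 0.85 in trained knockout hearts, a difference smaller than the spread. In lung they held 47.5% ± 2.9 and 41% ± 1.21, with ranges of 44.4 to 50.1% and 40 to 42.3% that do not overlap, without a test. Long genes had lower values in trained knockout lungs on the whole, as given above. With the length index as a covariate, 0 of 35 lung collagen genes were lower at an unadjusted p under 0.05 for the knockout in trained mice, against 6 without it. The part of length in the share was not tested.

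**Figure D5:**
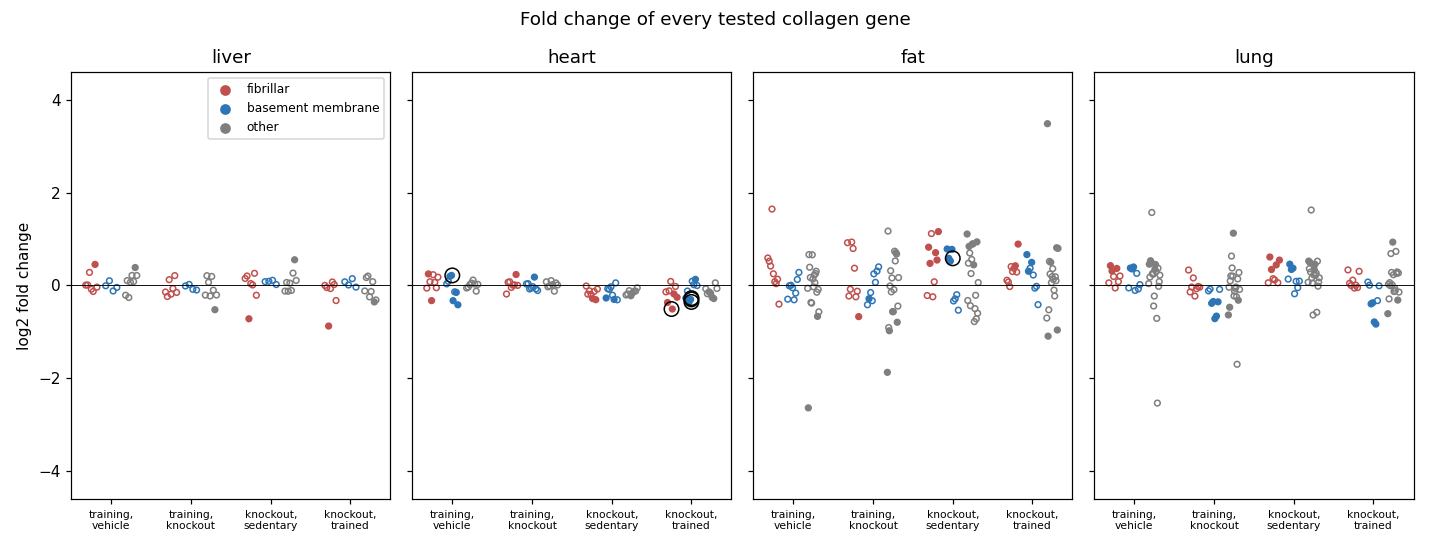
Log2 fold change of every tested collagen gene in 4 comparisons of each tissue, coloured by class, with filled points at an unadjusted p under 0.05 and black rings around the 6 called values. Most points lie below 0 for the knockout in heart and above 0 for the knockout in fat, and those of liver scatter on both sides.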

How the data were processed

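RNA from 64 mouse tissue libraries was extracted with Trizol and RNeasy columns, per the labels. The submitters' processing notes name STAR 2.7.8a and Partek with the builds mm10 and GRCm39, without their roles. The labels call all values CPM. The deposited liver and heart tables hold a scaled signal, in which 80.9 to 83.7% of values from 0.05 to 100 are whole multiples of a step for each library (within 0.02 reads); the depth of these libraries was estimated from that step. The deposited fat and lung tables hold expected counts per transcript, with transcript length in bases as the authors' other column, and were rounded after summing per symbol. Levels per kilobase use these lengths, weighted by reads.

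Groups were taken from the labels. Liver and heart values, multiplied by 1 factor per tissue (0.062 and 0.0573) to the scale of CPM, were tested with limma 3.58.1 with a trend on log2(value + 1) for genes with a mean of at least 1, and fold changes are on that scale, which understates those of low genes. Fat and lung counts were tested with edgeR 4.0.16 (TMM, filterByExpr, quasi-likelihood), where the SE is the fold change over the square root of F. In each tissue 1 model with 4 group means gave the 5 comparisons, in R 4.3.3, with Benjamini-Hochberg adjustment over all genes tested. The steps were tested on simulated data. Members, lists and tests were chosen with earlier results of these data known. Genes were named by rule: the called collagen genes of each comparison or else the one with the smallest p, and the leading genes of each class by level; genes behind a count, and other collagen genes given with a test, were named after their values were seen. Libraries carrying another tissue were those whose markers of it summed to 50 CPM or more and exceeded 10 times the median library of that tissue. Alternatives were other scalings, DESeq2 1.42.0, edgeR on estimated reads, no filter, a pseudocount of 0.1, a length index, a replicate block, the compared groups alone, and leaving out libraries. A result for 1 listed gene is not reported here.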

Additional observations from a re-analysis of the deposited data

Results flagged for a closer look

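In 8 of the 80 checked sets of 5 liver or heart libraries (named genes by group), 1 library lay far from the other 4 by Dixon's 95% limit, which chance alone passes in about 1 of 20 sets. In trained knockout livers, Col14a1 was 16.41 CPM in replicate 3, against 28.79 to 30.47 in the others, and Col6a3 was 4.732 in replicate 2, against 3.034 to 3.438. Replicate 2 is the library with skeletal muscle markers. In sedentary knockout livers, Col27a1 was 118.9 in replicate 3, against 29.29 to 41.71, and Col4a2 was 7.213 in replicate 2, against 5.952 to 6.313. In trained vehicle livers Col5a3 was 58.62 in replicate 1, against 19.77 to 29.12, and in sedentary vehicle livers Col6a2 was 2.755 in replicate 2, against 1.453 to 1.816. In sedentary vehicle hearts Col3a1 was 70.7 in replicate 3, a library that carries adipocyte markers, against 50.25 to 54.94. In sedentary knockout hearts Col4a1 was 113.9 in replicate 5, against 125.2 to 129.3.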

How the results depend on the processing

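Of the 23 fold changes of single collagen genes that the naming rule gave, none reversed under the alternatives run. Other members did change sign: with the length index as a covariate, 10 of 35 fold changes were positive for training in vehicle fat, against 20, and the median for the difference of training effects in fat was 0.20, against -0.16. Of the counts of called collagen genes, the following moved. With the groups of the comparison alone, the knockout in trained mice gave 1 in liver, 0 in heart and 1 in fat, training in vehicle hearts gave 0, and the knockout in sedentary fat gave 0. Of all genes these fits called 288 higher and 220 lower, 0 and 0, 85 and 412, 443 and 318, and 6 and 6, in the same order. The length index as a covariate gave 0 for training in vehicle hearts and for the knockout in trained hearts and, added after the data were seen, 0 for the knockout in sedentary fat. With it limma called 0 of all genes in these heart comparisons, and edgeR called 1 higher and 1 lower in that of fat. Without a filter on low values, which adds genes to the adjustment, the knockout in trained hearts gave 1 and the knockout in sedentary fat 0. Without the libraries carrying another tissue, training in vehicle hearts gave 3 and the knockout in trained hearts 6, within 1.5 times its count of 4. For the knockout in trained hearts that setting called 194 of all genes higher and 258 lower, against 22 and 48 in the main fit. For training in vehicle hearts it called 636 and 554, against 635 and 478. Training in vehicle hearts gave 3 also when the first trained vehicle heart, at 43.7 CPM of adipocyte markers just under the limit, was left out too, a setting chosen after the data were seen. Of all genes 285 were then called higher and 236 lower. DESeq2 gave 2 for training in knockout fat, 11 and 6 for the knockout in sedentary and trained fat and 2 for the difference of training effects there, and in lung 1 for training in vehicle mice, 3 and 1 for the knockout in sedentary and trained mice and 1 for the difference. The cause was not tested.

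Replicate numbers are shared between groups. Correlations of deviations between same-numbered libraries ran from -0.404 to 0.383 in fat, -0.305 to 0.207 in heart, -0.523 to 0.289 in liver and -0.265 to 0.334 in lung. Differently numbered libraries were not compared, so these values cannot tell whether the numbers pair the samples. With the replicate block, 2 collagen genes were called for training in vehicle hearts and 2 for the knockout in trained fat. Of all genes it called 633 higher and 547 lower of 13456 in the former, and 102 and 485 of 15448 in the latter. The call of Col18a1 in sedentary fat was lost with it (log2 0.59, edgeR adjusted p 0.0789).

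Leaving out each library in turn gave 0 to 3 calls for training in vehicle hearts, 0 to 6 for the knockout in trained hearts, 0 to 2 for the knockout in sedentary fat, 0 to 3 for the knockout in trained fat and 0 to 3 for the difference of training effects in fat, and 0 in all other comparisons. The shares of all genes called with a library left out are not given. In these fits the call for trained hearts was kept in 6 of 10 for Col4a1, 4 of 10 for Col4a2 and 3 of 10 for each of Col15a1 and Col3a1. That of Col4a2 with training was kept in 5 of 10 and that of Col18a1 in fat in 1 of 6. With type IV genes alone as the basement membrane class, its share was 1.91% in liver, 39.3% in heart and 20.7% in fat, and that of the other collagens 85%, 31.4% and 36.1%, by construction. With 3 libraries per group in fat and lung, and members under the filter at few reads, smaller differences were not detectable.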
